A study of Arabidopsis thaliana with 12 samples.

Results

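This account follows 40 Arabidopsis thaliana genes for ribosome biogenesis factors, the proteins that process, modify and fold ribosomal RNA (rRNA) and assemble it into ribosomal subunits. They were chosen by AGI locus from what their products are known to do, with earlier results of these data known. All 40 are among the 25383 loci that the array covers. The genes fall into 9 groups by role. RNA came from leaves of 2-week-old seedlings grown under 16 h of light and was read on 12 one-colour (Cy3) Agilent arrays. The transgenic plants carried 35S::RDM4, which expresses RDM4 from the viral 35S promoter, active in most plant tissues, and were sampled at room temperature (0 h) and after 3 h and 48 h at 4 °C. RDM4 is a factor of the IWR1 type, which in yeast acts in the nuclear import of RNA polymerase II. The Col wild type plants were sampled at the same 3 times. Each of the 6 groups has 2 arrays, described in the labels as biological replicates (n = 2), and each extract pooled leaves of at least 30 seedlings from a plate. Which overexpression line supplied each array is not given in the sources used here. No array of plants kept at room temperature for 3 h or 48 h was analysed here, so cold cannot be told apart from time of day or age in any comparison with 0 h.

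Ribosomes are built in the nucleolus from rRNA transcribed by RNA polymerase I. Small nucleolar ribonucleoproteins (snoRNPs) of the box C/D type guide 2′-O-methylation of the rRNA and those of the H/ACA type guide pseudouridylation, while helicases, nucleases and assembly factors cut and fold the precursor into small (40S) and large (60S) subunits. The last steps take place in the cytoplasm, where GTPases and zinc finger proteins release assembly factors from the 60S subunit; in Arabidopsis the REIL zinc finger proteins and the RNA helicase RH7 are known to be needed for normal growth in the cold.

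All 40 genes had a probe well above background on all 12 arrays, by the scanner's own call, and all were tested together with the other genes, 20806 in all. Levels are given as log2 of the processed signal relative to the 75th percentile of the same array, so that 0 is the signal of that percentile, and can be compared between arrays for one gene but not between genes. A gene was called changed at an adjusted p below 0.05 in limma, with the Benjamini-Hochberg adjustment over all genes. Errors of log2 changes are standard errors (SE) of that fit, and the p-values measure the spread between these samples only. Between 73.4 and 76.8 % of probes were well above background on an array, and Pearson's r over genes between the 2 arrays of a group was 0.996 to 0.997, as a description of their likeness. The arrays lay on 5 slides scanned on 2 days. RDM4 (AT2G30280) had log2 levels of 5.44 to 6.10 on the 6 arrays of 35S::RDM4 plants, against 0.09 to 0.57 on the 6 wild type arrays, as their labels say. The 4 leaf markers (RBCS1A, LHCB1.3, CA1 and RCA) and the 4 root markers (COBL9, EXP7, IRT1 and TIP2;3) were all well above background on all 12 arrays.

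After 48 h at 4 °C nearly the whole set had risen in both genotypes. In 35S::RDM4 plants 39 of the 40 genes passed the test as higher than at 0 h and 1 as lower, where 40.8 % of all genes tested passed as higher and 38.7 % as lower. In wild type 39 passed as higher and 0 as lower, where 39.8 % of all genes passed as higher and 39 % as lower. The median log2 change of the 40 genes was 1.27 in 35S::RDM4 plants and 1.25 in wild type, beside 0.01 and −0.0014 over all genes tested. At least 2-fold higher were 25 of the 40 in 35S::RDM4 plants and 28 in wild type, against 9.93 % and 9.19 % of all genes. The exception in both genotypes was DIM1A, and the genes whose change was smallest among those that rose encode 60S assembly factors (REIL1, LSG1-1 and NUG2). In bulk leaf RNA, fewer cells of a type and less RNA per cell cannot be told apart.

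**Figure D1:**
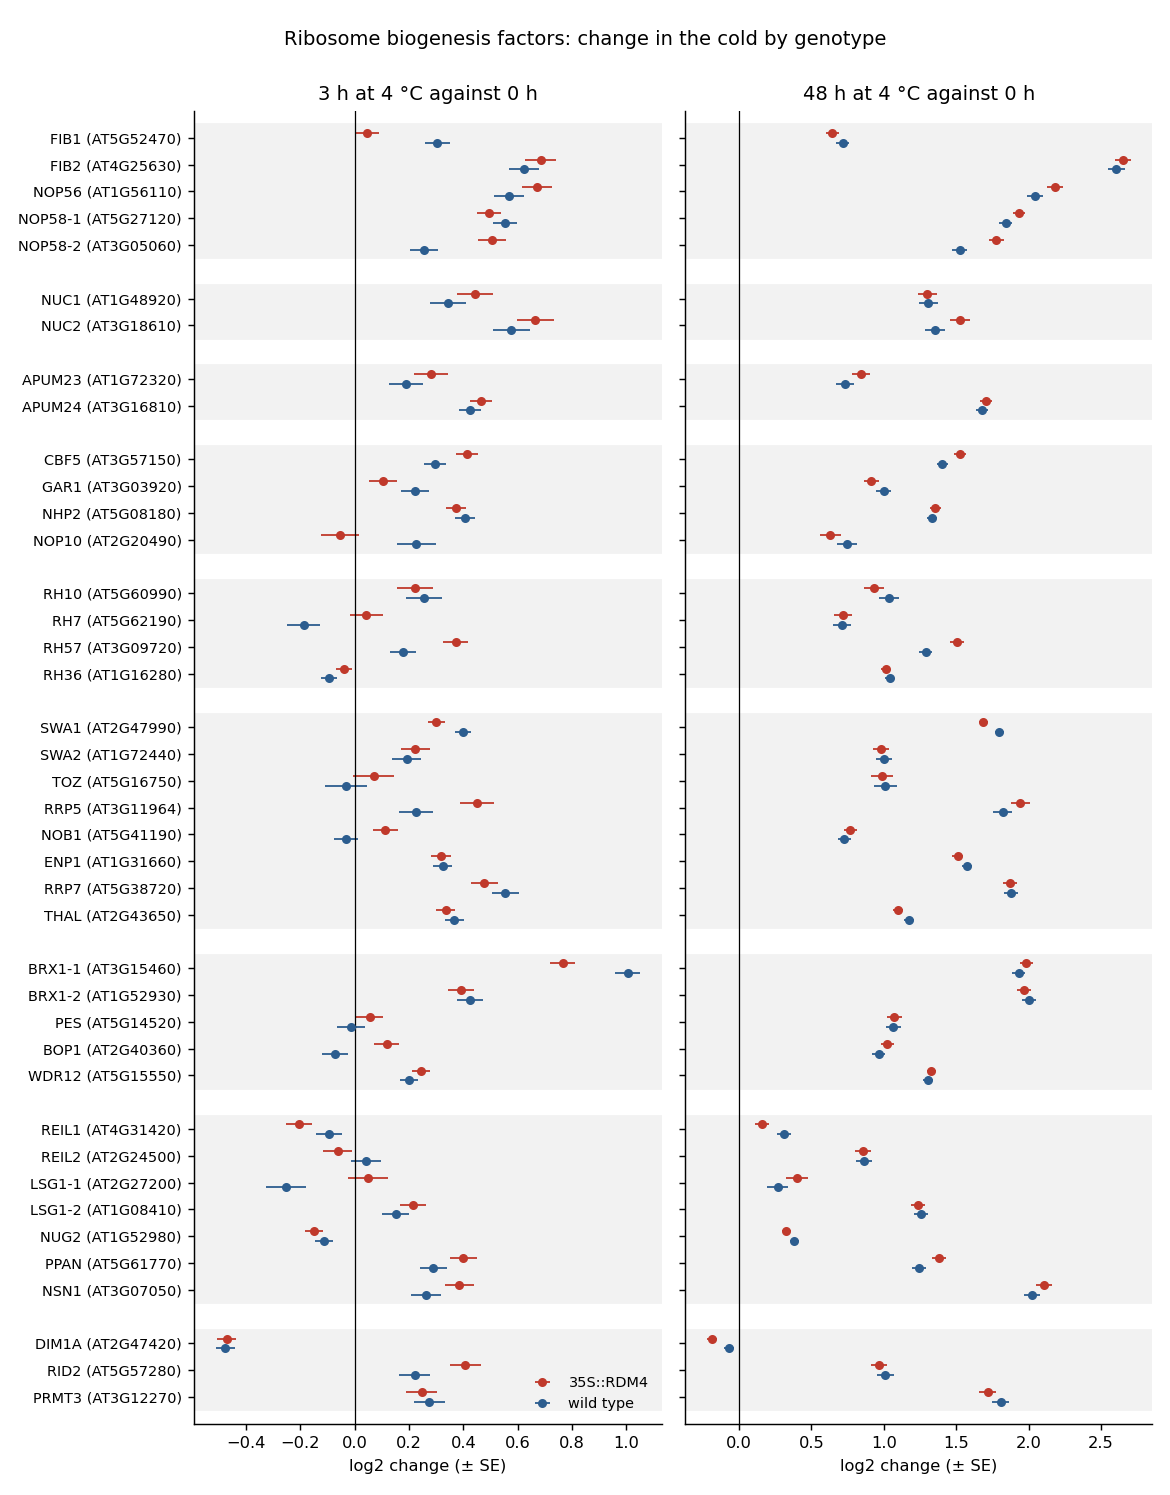
Log2 change after 3 h (left) and 48 h (right) at 4 °C against 0 h for each of the 40 genes, with 35S::RDM4 in red above wild type in blue, points for the estimate and bars for ± 1 SE (n = 2 arrays a group); shaded blocks are the 9 role groups. At 48 h all genes but DIM1A lie to the right of 0 in both genotypes, from 0.16 for REIL1 to 2.65 for FIB2 in 35S::RDM4 plants and from 0.27 for LSG1-1 to 2.61 for FIB2 in wild type, whereas at 3 h the changes are smaller and lie on both sides of 0.

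The box C/D snoRNP proteins included the gene that rose most of the 40 in both genotypes. FIB2 (AT4G25630) encodes a fibrillarin, the methyltransferase of these particles. Its log2 level in 35S::RDM4 plants read 0.32 and 0.30 at 0 h, 1.07 and 0.92 at 3 h and 3.03 and 2.90 at 48 h. In wild type it read 0.49 and 0.50 at 0 h, 1.104 and 1.14 at 3 h and 3.09 and 3.12 at 48 h. Every array at 48 h stood above every array at 3 h, and these above every array at 0 h, in each genotype. The rise at 48 h was 6.29-fold in 35S::RDM4 plants (log2 2.65 ± 0.0561, adjusted p = 2.72e-09) and 6.09-fold in wild type (log2 2.61 ± 0.0561, adjusted p = 2.98e-09). NOP56 (AT1G56110), a core scaffold protein of the same particle, rose by 2.18 and 2.04 on the log2 scale, and its partner NOP58-1 (AT5G27120) by 1.93 and 1.84. The second NOP58 gene, NOP58-2 (AT3G05060), rose by 1.78 in 35S::RDM4 plants and 1.52 in wild type, and the second fibrillarin gene, FIB1 (AT5G52470), by 0.64 and 0.72.

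Among the H/ACA snoRNP proteins, CBF5 (AT3G57150), the pseudouridine synthase, changed most. Its log2 level read 1.65 and 1.56 at 0 h, 2.01 and 2.03 at 3 h and 3.17 and 3.10 at 48 h in 35S::RDM4 plants. The wild type arrays read 1.77 and 1.74 at 0 h, 2.05 on both arrays at 3 h and 3.16 and 3.15 at 48 h. The groups of the 3 times did not overlap in either genotype, and the change at 48 h was 1.53 ± 0.0405 in 35S::RDM4 plants and 1.40 ± 0.0405 in wild type (adjusted p = 7.97e-09 and 1.23e-08). The other core proteins of the particle rose less. NHP2 (AT5G08180), which binds the guide RNA, changed by 1.35 in 35S::RDM4 plants and 1.33 in wild type, GAR1 (AT3G03920), also of the core, by 0.91 and 1.00, and the small protein NOP10 (AT2G20490), which joins CBF5 to NHP2, by 0.63 and 0.74.

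Nucleolins act on the chromatin of rRNA genes and on the precursor itself. NUC1 (AT1G48920), the main nucleolin of growing plants, had log2 levels of 2.74 and 2.67 at 0 h, 3.17 and 3.12 at 3 h and 4.10 and 3.91 at 48 h in 35S::RDM4 plants. Its levels in wild type were 2.71 and 2.60 at 0 h, 3.03 and 2.96 at 3 h and 3.97 and 3.94 at 48 h. NUC2 (AT3G18610) was dim, though well above background on every array, with −4.88 and −4.87 at 0 h, −4.15 and −4.26 at 3 h and −3.34 and −3.35 at 48 h in 35S::RDM4 plants and −4.92 and −5.10 at 0 h, −4.41 and −4.46 at 3 h and −3.60 and −3.72 at 48 h in wild type. Both genes were higher at each later time on every array. At 48 h NUC1 had changed by 1.301 ± 0.0659 and 1.31 ± 0.0659, and NUC2 by 1.53 ± 0.0674 and 1.35 ± 0.0674, in 35S::RDM4 plants and wild type in that order (adjusted p at most 2.87e-07). With normexp background correction the NUC2 change in wild type was 0.79 and still passed (adjusted p = 0.0208).

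Both genes for PUM-type RNA-binding proteins rose. APUM24 (AT3G16810), a nucleolar protein of rRNA processing, had log2 levels of −0.47 and −0.53 at 0 h, −0.04 and −0.03 at 3 h and 1.18 and 1.24 at 48 h in 35S::RDM4 plants. In wild type they were −0.49 and −0.56 at 0 h, −0.08 and −0.12 at 3 h and 1.18 and 1.13 at 48 h. The times did not overlap in either genotype, and the 48 h change was 1.71 ± 0.0406 in 35S::RDM4 plants and 1.68 ± 0.0406 in wild type (adjusted p = 4.65e-09 and 5.06e-09). APUM23 (AT1G72320), which acts in rRNA processing and leaf development, changed by 0.84 and 0.73.

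All 4 DEAD-box RNA helicases, which unwind RNA during processing, were higher at 48 h. RH57 (AT3G09720), related to yeast Rok1, had log2 levels of −1.21 and −1.15 at 0 h, −0.88 and −0.74 at 3 h and 0.30 and 0.34 at 48 h in 35S::RDM4 plants and −1.11 and −1.12 at 0 h, −0.95 and −0.93 at 3 h and 0.18 and 0.17 at 48 h in wild type. Each later time was higher on every array, and the 48 h change was 1.504 ± 0.0465 in 35S::RDM4 plants and 1.29 ± 0.0465 in wild type (adjusted p = 1.79e-08 and 4.18e-08). RH10 (AT5G60990), related to yeast Rrp3, changed by 0.93 and 1.04, and RH36 (AT1G16280), needed for processing of 18S rRNA and for gametophyte development, by 1.01 and 1.04. RH7 (AT5G62190), the nucleolar helicase known from cold tolerance, changed least of the 4, by 0.72 in 35S::RDM4 plants and 0.71 in wild type.

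The 8 genes for early nucleolar processing and the small subunit all rose at 48 h. RRP7 (AT5G38720), which acts in 18S rRNA maturation, changed most of them in wild type. Its log2 level read −0.74 and −0.69 at 0 h, −0.21 and −0.26 at 3 h and 1.12 and 1.20 at 48 h in 35S::RDM4 plants, and −0.65 and −0.78 at 0 h, −0.17 and −0.16 at 3 h and 1.18 and 1.15 at 48 h in wild type. The arrays of the 3 times stood apart, with changes at 48 h of 1.87 ± 0.0493 in 35S::RDM4 plants and 1.88 ± 0.0493 in wild type (adjusted p = 7.74e-09 and 7.5e-09). Close to it were RRP5 (AT3G11964), an early processing factor in yeast, with 1.94 and 1.82, and SWA1 (AT2G47990), a WD40 protein of the small subunit processome, with 1.69 and 1.80. ENP1 (AT1G31660), related to the bystin family, changed by 1.51 and 1.57, and THAL (AT2G43650), related to yeast Sas10, by 1.098 and 1.18. Lower in this order were TOZ (AT5G16750), a WD40 protein needed in the embryo (0.99 and 1.01), SWA2 (AT1G72440), related to the yeast Noc proteins (0.98 and 1.00), and NOB1 (AT5G41190), the endonuclease that makes the 3′ end of 18S rRNA (0.77 and 0.73).

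Of the large subunit assembly genes in the nucleolus, both BRX1 genes, whose yeast relative acts in rRNA processing for the 60S subunit, rose at 48 h. BRX1-1 (AT3G15460) changed by 1.98 ± 0.0462 in 35S::RDM4 plants and 1.93 ± 0.0462 in wild type, and BRX1-2 (AT1G52930) by 1.97 ± 0.0475 and 2.00 ± 0.0475 (adjusted p at most 4.98e-09). PES (AT5G14520), BOP1 (AT2G40360) and WDR12 (AT5G15550) form one complex that acts in processing of the large subunit rRNA. Their changes were 1.07, 1.02 and 1.33 in 35S::RDM4 plants and 1.07, 0.96 and 1.304 in wild type, all 3 past the test in both genotypes.

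The GTPases, PPAN and the REIL proteins ranged widely. NSN1 (AT3G07050), a nucleolar GTPase of the nucleostemin type, had log2 levels of 0.14 and 0.09 at 0 h, 0.54 and 0.45 at 3 h and 2.24 and 2.20 at 48 h in 35S::RDM4 plants and 0.29 and 0.15 at 0 h, 0.50 and 0.46 at 3 h and 2.27 and 2.21 at 48 h in wild type. Its 48 h arrays lay far above the rest, at a change of 2.11 ± 0.0549 in 35S::RDM4 plants and 2.02 ± 0.0549 in wild type (adjusted p = 7.42e-09 and 8.96e-09). PPAN (AT5G61770), a Peter Pan-like factor whose yeast relatives act in 60S assembly, changed by 1.38 and 1.24. At the other end, NUG2 (AT1G52980), a nuclear GTPase related to yeast Nog2, changed by 0.33 and 0.38. The second probe of NUG2 gave 0.33 in 35S::RDM4 plants and 0.61 in wild type. The late cytoplasmic factors LSG1 and REIL are described with the paralog pairs.

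In the last group, PRMT3 (AT3G12270), a protein arginine methyltransferase of ribosome assembly, had log2 levels of −0.87 and −0.98 at 0 h, −0.64 and −0.71 at 3 h and 0.77 and 0.82 at 48 h in 35S::RDM4 plants and −0.84 and −0.94 at 0 h, −0.58 and −0.65 at 3 h and 0.96 and 0.87 at 48 h in wild type. It changed by 1.72 ± 0.057 in 35S::RDM4 plants and 1.81 ± 0.057 in wild type at 48 h (adjusted p = 2.64e-08 and 2e-08). RID2 (AT5G57280), a methyltransferase related to yeast Bud23, changed by 0.97 and 1.01. DIM1A (AT2G47420), a nucleolar rRNA dimethyltransferase, went the other way, and was singled out after its values were seen. Its log2 level read 1.22 and 1.24 at 0 h, 0.74 and 0.78 at 3 h and 1.07 and 1.02 at 48 h in 35S::RDM4 plants and 1.17 on both arrays at 0 h, 0.72 and 0.67 at 3 h and 1.08 and 1.12 at 48 h in wild type. Both genotypes were lowest at 3 h, with falls of 0.47 and 0.48 on the log2 scale in 35S::RDM4 plants and wild type (adjusted p = 5.59e-06 and 5.17e-06). At 48 h the difference from 0 h was −0.19 ± 0.0349 in 35S::RDM4 plants (adjusted p = 0.00105) and −0.07 ± 0.0349 in wild type, which did not pass (adjusted p = 0.103). Its 2 probes gave −0.26 and −0.19 in 35S::RDM4 plants and −0.11 and −0.07 in wild type.

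After 3 h the changes were smaller and mixed. In 35S::RDM4 plants 28 of the 40 genes passed as higher and 3 as lower, where 32.9 % of all genes passed as higher and 37 % as lower. In wild type 29 passed as higher and 5 as lower, where 31 % of all genes passed as higher and 37.1 % as lower. The median log2 change was 0.29 in 35S::RDM4 plants and 0.24 in wild type, beside −0.03 and −0.04 over all genes. The nucleolins and the box C/D group had the highest medians of the 9 role groups at this time. Both nucleolin genes passed as higher in both genotypes, with medians of 0.55 in 35S::RDM4 plants and 0.46 in wild type. The NUC2 part of this rests on the background correction, since with normexp its 3 h change was 0.46 in 35S::RDM4 plants (adjusted p = 0.15) and 0.16 in wild type (adjusted p = 0.604), against 0.66 and 0.58 without it. Of the 5 box C/D genes 4 passed as higher in 35S::RDM4 plants and 5 in wild type, with medians of 0.51 and 0.55. The largest early rise in either genotype was that of BRX1-1, with 0.77 ± 0.0462 in 35S::RDM4 plants and 1.00 ± 0.0462 in wild type.

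Genes lower at 3 h were few and came from the helicase, GTPase, REIL and methyltransferase groups. Beside DIM1A they were REIL1 (−0.20, adjusted p = 0.0047) and NUG2 (−0.15, 0.00307) in 35S::RDM4 plants. In wild type they were LSG1-1 (−0.25, 0.0154), RH7 (−0.19, 0.0231), NUG2 (−0.11, 0.013) and RH36 (−0.09, 0.0199). The falls of RH36 and NUG2 differ between probes, since the second probe of RH36 gave 0.06 in wild type and that of NUG2 gave 0.05. TOZ, PES and REIL2 passed in neither genotype at 3 h, and all 3 were higher at 48 h.

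Between 3 h and 48 h every gene of the set rose. In 35S::RDM4 plants 40 of 40 passed as higher and 0 as lower, where 40.8 % of all genes passed as higher and 35.1 % as lower. In wild type 40 of 40 passed as higher and 0 as lower, where 41 % of all genes passed as higher and 35.1 % as lower. The median log2 change over this interval was 0.98 in 35S::RDM4 plants and 1.00 in wild type. It ran from 0.28 for DIM1A to 1.97 for FIB2 in 35S::RDM4 plants, and from 0.41 for REIL1 to 1.98 for FIB2 in wild type.

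Within a slide or a scan day the changes had the same direction and similar size. No slide holds 35S::RDM4 arrays of both 0 h and 48 h, but within the second scan day their median 48 h change was 1.303, with 39 of 40 genes higher. In wild type the median from 0 h to 48 h was 1.24 on the first slide and 1.25 on the third, with 39 of 40 genes higher on each. From 0 h to 3 h the median was 0.28 on the slide that holds the first 35S::RDM4 replicate of both times, and 0.24 and 0.25 on the 2 wild type slides.

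For 6 protein families of the set both paralogs were measured, and their changes could be compared directly. The difference between the changes of paralogs was fitted as 6 further rows beside all genes, an addition made after the members' values had been seen. Probe sequences were not used here, so cross-hybridisation between paralogs was not tested. The fibrillarin pair was the most unequal at 48 h. FIB1 had log2 levels of 3.37 and 3.44 at 0 h, 3.47 and 3.42 at 3 h and 4.10 and 3.99 at 48 h in 35S::RDM4 plants and 3.32 and 3.33 at 0 h, 3.63 and 3.64 at 3 h and 4.02 and 4.06 at 48 h in wild type, a rise at 48 h in both genotypes that was smaller than that of FIB2 described above. FIB2 changed by 2.01 ± 0.0411 more than FIB1 in 35S::RDM4 plants (adjusted p = 2.35e-09) and by 1.89 ± 0.0411 more in wild type (adjusted p = 3.13e-09), both on the log2 scale.

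The late cytoplasmic GTPase LSG1, which acts on the 60S subunit, is also encoded by a pair of unequal genes. LSG1-2 (AT1G08410) had log2 levels of −1.20 and −1.30 at 0 h, −1.04 and −1.03 at 3 h and 0.01 and −0.03 at 48 h in 35S::RDM4 plants and −1.22 and −1.34 at 0 h, −1.11 and −1.16 at 3 h and −0.01 and −0.04 at 48 h in wild type. LSG1-1 (AT2G27200) had −0.78 and −0.86 at 0 h, −0.82 and −0.71 at 3 h and −0.32 and −0.52 at 48 h in 35S::RDM4 plants and −0.63 and −0.77 at 0 h, −0.95 and −0.96 at 3 h and −0.42 and −0.45 at 48 h in wild type. The 48 h arrays of LSG1-2 lay well above all others, while those of LSG1-1 lay above their own 0 h arrays by less. LSG1-2 changed more than LSG1-1 at 48 h by 0.84 ± 0.0547 in 35S::RDM4 plants and by 0.99 ± 0.0547 in wild type (adjusted p = 1.37e-06 and 5.01e-07).

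The REIL zinc finger proteins, which act on the 60S subunit in the cytoplasm, showed the same kind of inequality. REIL2 (AT2G24500) had log2 levels of 0.16 and 0.24 at 0 h, 0.16 and 0.12 at 3 h and 1.08 and 1.03 at 48 h in 35S::RDM4 plants and 0.10 and 0.25 at 0 h, 0.19 and 0.24 at 3 h and 1.04 and 1.03 at 48 h in wild type. REIL1 (AT4G31420) had 1.15 and 1.14 at 0 h, 1.01 and 0.88 at 3 h and 1.28 and 1.34 at 48 h in 35S::RDM4 plants and 1.04 and 1.03 at 0 h, 0.97 and 0.92 at 3 h and 1.34 and 1.36 at 48 h in wild type. For REIL2 the arrays of 0 h and 3 h lay close together in both genotypes and those of 48 h stood above them. The 48 h change of REIL2 was 0.85 in 35S::RDM4 plants and 0.86 in wild type, and that of REIL1 0.16 and 0.31. The difference between the 2 genes was 0.69 ± 0.0682 in 35S::RDM4 plants and 0.55 ± 0.0682 in wild type (adjusted p = 1.93e-05 and 8.76e-05). The second probe of REIL1 gave 0.38 in 35S::RDM4 plants and 0.35 in wild type.

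The other pairs were closer. NOP58-1 had log2 levels of −0.27 and −0.22 at 0 h, 0.22 and 0.27 at 3 h and 1.65 and 1.73 at 48 h in 35S::RDM4 plants and −0.28 and −0.25 at 0 h, 0.24 and 0.33 at 3 h and 1.58 and 1.57 at 48 h in wild type. NOP58-2 had −0.67 and −0.68 at 0 h, −0.22 and −0.11 at 3 h and 1.05 and 1.16 at 48 h in 35S::RDM4 plants and −0.60 and −0.67 at 0 h, −0.38 on both arrays at 3 h and 0.87 and 0.91 at 48 h in wild type. Both rose at each later time. At 3 h the change of NOP58-1 minus that of NOP58-2 was −0.01 ± 0.049 in 35S::RDM4 plants (adjusted p = 0.837) and 0.30 ± 0.049 in wild type (adjusted p = 0.000734). NOP58-1 changed more at 48 h by 0.16 ± 0.049 in 35S::RDM4 plants (adjusted p = 0.0177) and 0.32 ± 0.049 in wild type (adjusted p = 0.000355). For the nucleolins the 48 h change of NUC1 minus that of NUC2 was −0.23 ± 0.0658 in 35S::RDM4 plants (adjusted p = 0.0124) and −0.05 ± 0.0658 in wild type (adjusted p = 0.53). That order turned with the background correction, since with normexp the difference was 0.16 in 35S::RDM4 plants and 0.55 in wild type.

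The BRX1 genes differed in timing. BRX1-1 had log2 levels of −2.16 and −2.15 at 0 h, −1.36 and −1.41 at 3 h and −0.22 and −0.12 at 48 h in 35S::RDM4 plants and −2.21 and −2.16 at 0 h, −1.14 and −1.22 at 3 h and −0.25 and −0.26 at 48 h in wild type. BRX1-2 had 0.00 and −0.01 at 0 h, 0.44 and 0.34 at 3 h and 1.91 and 2.02 at 48 h in 35S::RDM4 plants and −0.19 and −0.13 at 0 h, 0.25 and 0.27 at 3 h and 1.84 on both arrays at 48 h in wild type. Both were higher at each later time on every array. At 3 h BRX1-1 had changed by 0.37 ± 0.0384 more than BRX1-2 in 35S::RDM4 plants and by 0.58 ± 0.0384 more in wild type (adjusted p = 4.08e-05 and 2.83e-06). At 48 h the difference was 0.02 ± 0.0384 in 35S::RDM4 plants and −0.07 ± 0.0384 in wild type, and passed in neither (adjusted p = 0.701 and 0.109).

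Between the genotypes the balance within 3 of the 6 pairs passed the same fit, at 0 h, at 3 h or for the 3 h change, and none at 48 h. Over all genes 4.75 % passed as higher and 8.08 % as lower at 0 h, and 2.25 % and 2.69 % at 3 h. For the 3 h change the shares were 4.7 % and 2.63 %. At 0 h the log2 ratio of FIB2 to FIB1 was lower in 35S::RDM4 plants than in wild type by a difference of −0.26 ± 0.0411 (adjusted p = 0.00584), and its change at 3 h was greater in 35S::RDM4 plants by 0.32 ± 0.0582 (adjusted p = 0.0199). For NOP58-1 to NOP58-2 the ratio at 3 h differed by −0.25 ± 0.049 (adjusted p = 0.0382) and its 3 h change by −0.31 ± 0.0693 (adjusted p = 0.0376), both lower in 35S::RDM4 plants. For BRX1-1 to BRX1-2 the ratio at 3 h was lower in 35S::RDM4 plants, with a difference of −0.33 ± 0.0384 (adjusted p = 0.0108). These differences kept their sign under the 25 other settings, where only their values and not their tests were computed.

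**Figure D2:**
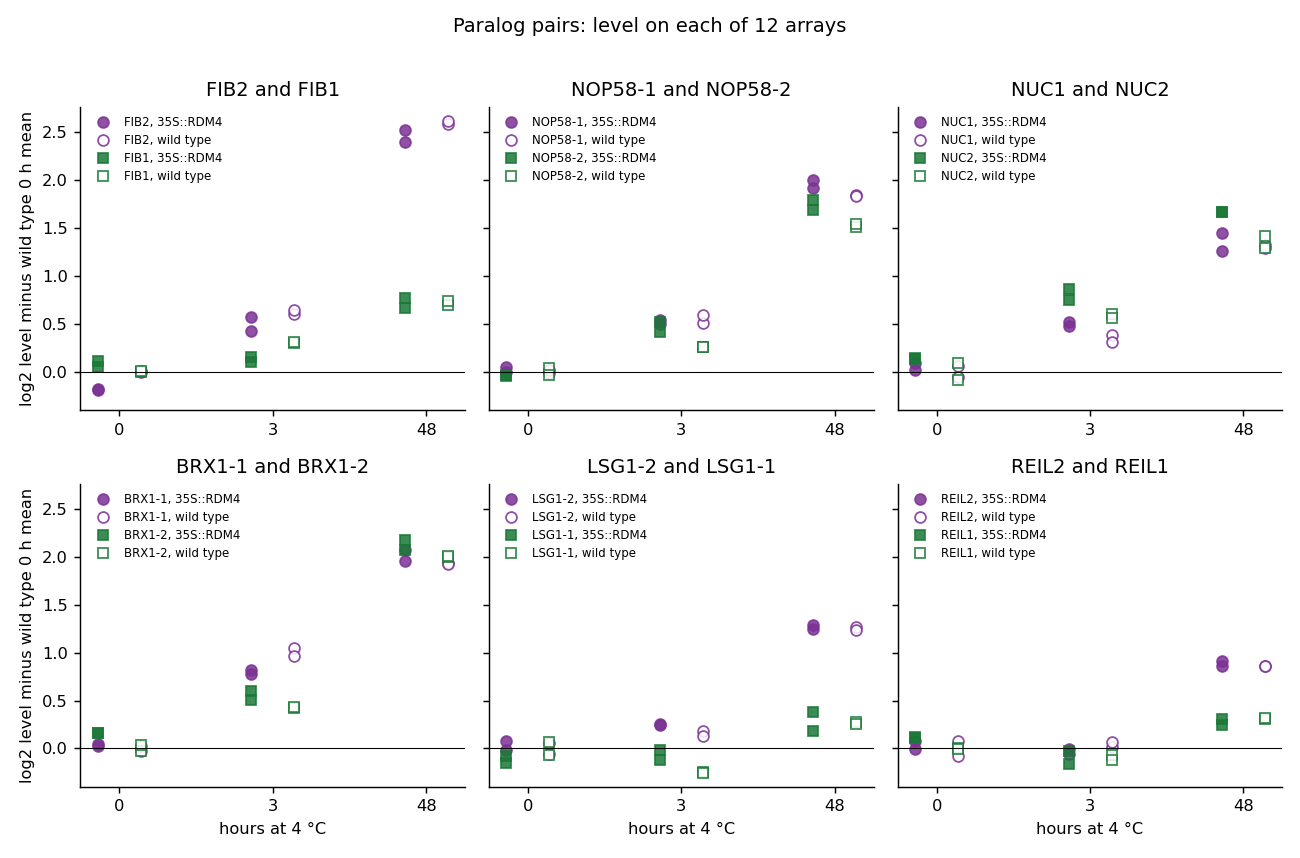
Log2 level of both genes of 6 paralog pairs on each of the 12 arrays, minus the mean of that gene's wild type arrays at 0 h, against hours at 4 °C; filled symbols are 35S::RDM4 and open symbols wild type, each point is an array, and the time axis is not to scale. FIB2, LSG1-2 and REIL2 (circles) stand above FIB1, LSG1-1 and REIL1 (squares) at 48 h in both genotypes, and BRX1-1 stands above BRX1-2 at 3 h.

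Most of the set was near its wild type level in 35S::RDM4 plants at each time. No slide holds arrays of both genotypes at 0 h or at 3 h, so genotype cannot be told apart from slide in those comparisons. Before cold, 2 of the 40 genes passed as higher in 35S::RDM4 plants than in wild type and 0 as lower, where 4.75 % of all genes passed as higher and 8.08 % as lower. After 3 h, 3 passed as higher and 1 as lower, where the shares of all genes were 2.25 % and 2.69 %. After 48 h, 1 passed as higher and 0 as lower, against 2.62 % and 1.13 % of all genes. Every 95% interval of the 35S::RDM4 minus wild type difference lay within 1.5-fold either way, for all 40 genes at all 3 times, with bounds from −0.32 to 0.37 at 0 h, from −0.31 to 0.53 at 3 h and from −0.28 to 0.47 at 48 h on the log2 scale. Before adjustment, 9, 12 and 10 of the 40 genes had a p below 0.05 at 0, 3 and 48 h, where 29.1 %, 26 % and 16.9 % of all genes did.

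RID2 and SWA2 were the genes that passed at more than 1 time. RID2 had log2 levels of −2.38 and −2.44 at 0 h, −2.03 and −1.98 at 3 h and −1.52 and −1.36 at 48 h in 35S::RDM4 plants and −2.58 and −2.67 at 0 h, −2.38 and −2.42 at 3 h and −1.61 and −1.62 at 48 h in wild type. At every time both 35S::RDM4 arrays were above both wild type arrays. The difference was 0.22 ± 0.0568 at 0 h (adjusted p = 0.0441), 0.40 ± 0.0568 at 3 h (adjusted p = 0.0181) and 0.17 ± 0.0568 at 48 h, which did not pass (adjusted p = 0.173). SWA2 had log2 levels of −1.35 and −1.40 at 0 h, −1.22 and −1.09 at 3 h and −0.43 and −0.37 at 48 h in 35S::RDM4 plants and −1.67 and −1.58 at 0 h, −1.43 on both arrays at 3 h and −0.59 and −0.65 at 48 h in wild type. Again the groups did not overlap at any time, with differences of 0.25 ± 0.0536 at 0 h (adjusted p = 0.0223), 0.28 ± 0.0536 at 3 h (adjusted p = 0.0363) and 0.23 ± 0.0536 at 48 h (adjusted p = 0.0641). Such separation was common in the set and does not mark out these genes. Of the 40 genes, 12 stood apart as higher in 35S::RDM4 plants and 10 as lower at 0 h. The counts were 20 and 11 at 3 h and 12 and 6 at 48 h. Within the 2 scan days the 3 h difference of RID2 was 0.36 and 0.45 and that of SWA2 0.21 and 0.34.

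At 3 h the other 2 calls were RH36 and BRX1-1. RH36 had log2 levels of −0.47 and −0.48 at 0 h, −0.52 and −0.50 at 3 h and 0.55 and 0.53 at 48 h in 35S::RDM4 plants and −0.53 and −0.57 at 0 h, −0.64 and −0.66 at 3 h and 0.48 and 0.50 at 48 h in wild type. It was higher in 35S::RDM4 plants at 3 h by 0.13 ± 0.0294 (adjusted p = 0.0444). BRX1-1, whose levels are given with the pairs, was lower in 35S::RDM4 plants at 3 h, with a difference of −0.21 ± 0.0462 (adjusted p = 0.0461). At 48 h NUC2 was higher in 35S::RDM4 plants by 0.31 ± 0.0674 (adjusted p = 0.0456), and by 0.38 on the slide that holds 48 h arrays of both genotypes. All 5 genes kept the sign of these differences under the 25 other settings tried, but each call was lost under some: RID2 in 16 of 25 at 0 h and 7 at 3 h, SWA2 in 7 and 12, RH36 in 17, BRX1-1 in 16 and NUC2 in 18.

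**Figure D3:**
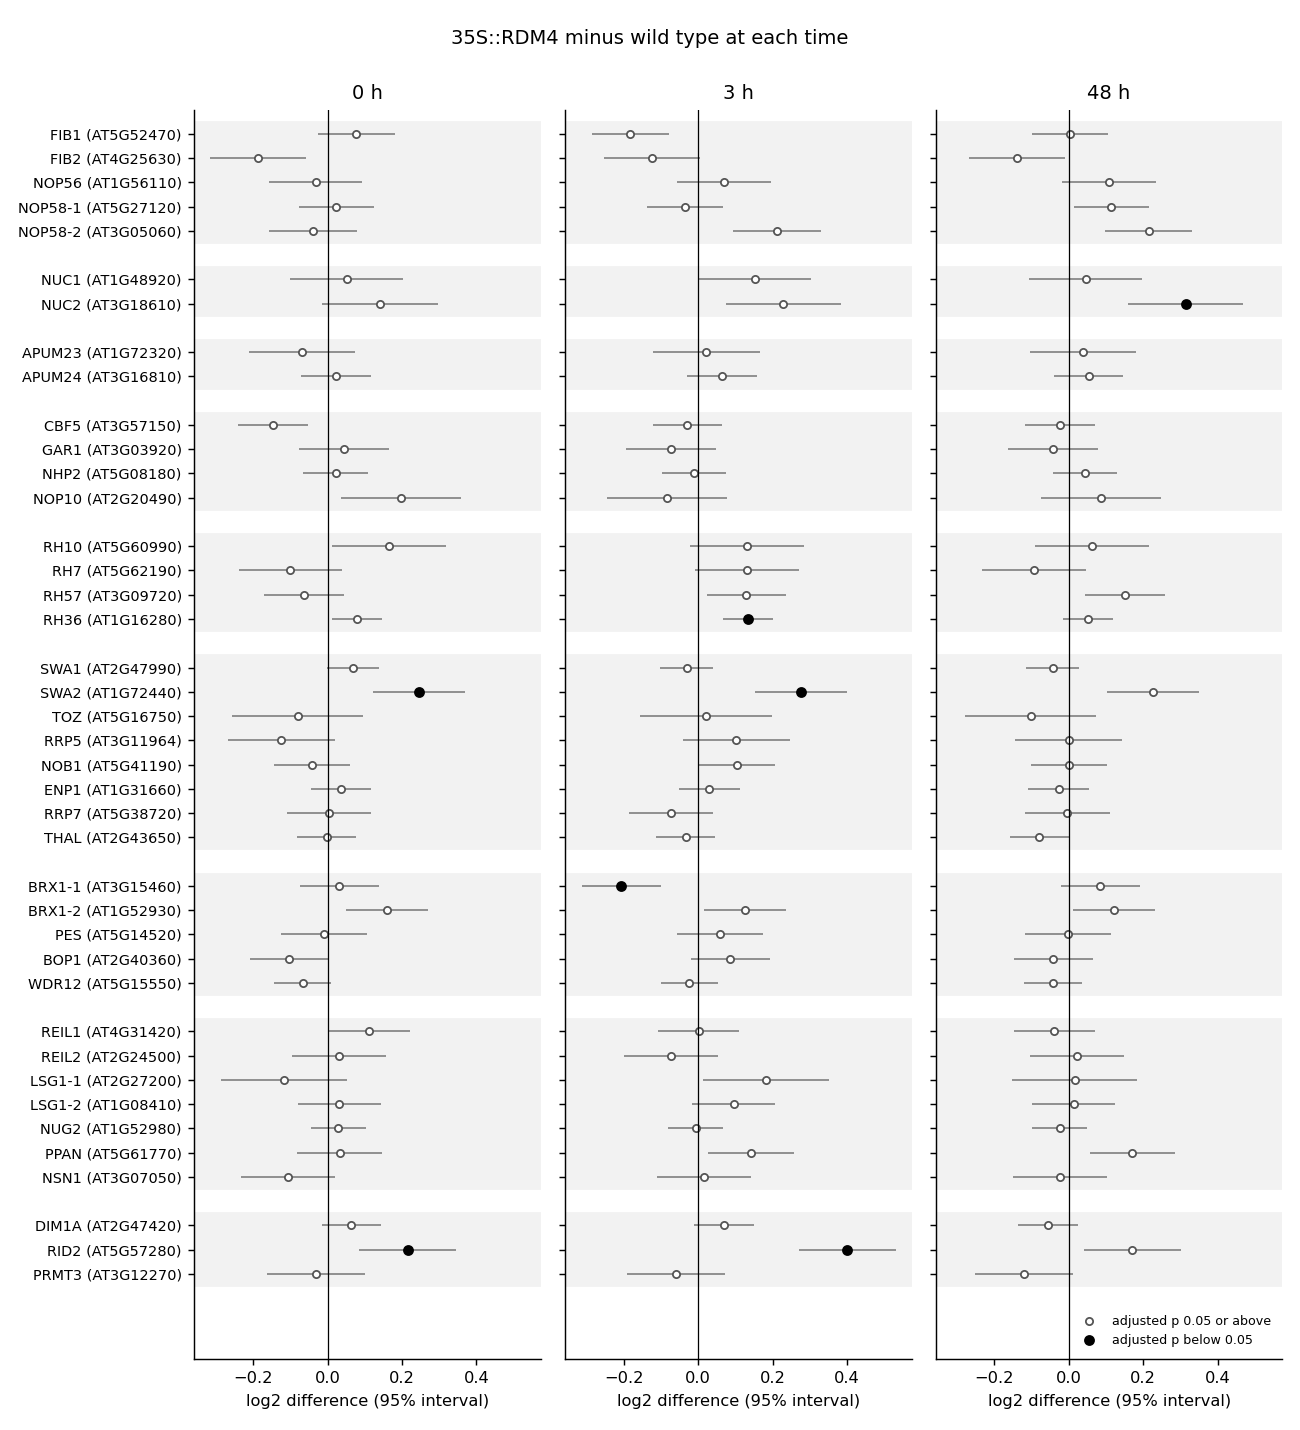
Difference in log2 level between 35S::RDM4 plants and wild type for each of the 40 genes at 0 h (left), 3 h (middle) and 48 h (right) of cold; points are estimates (n = 2 arrays a group), bars 95% intervals, and filled points have an adjusted p below 0.05. Filled points are RID2 and SWA2 at 0 h, RID2, SWA2, RH36 and BRX1-1 at 3 h and NUC2 at 48 h, and no interval reaches beyond 0.53.

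The change in the cold was also compared between the genotypes directly, as 35S::RDM4 minus wild type. For the change at 3 h, 0 of 40 genes passed as higher in 35S::RDM4 plants and 1 as lower, where 4.7 % and 2.63 % of all genes did so. Before adjustment 11 of the 40 had a p below 0.05, as did 26.7 % of all genes. All 40 of the 95% intervals lay between −0.51 and 0.54 on the log2 scale. The gene was FIB1, which changed by 0.05 ± 0.0446 in 35S::RDM4 plants (adjusted p = 0.393) and by 0.30 ± 0.0446 in wild type (adjusted p = 0.00036), a difference of −0.26 ± 0.063 (adjusted p = 0.0475). Within the first scan day the FIB1 change at 3 h was 0.10 in 35S::RDM4 plants and 0.30 in wild type, and within the second −0.01 and 0.31. One lower call among 40 genes is about the share of all genes, and the call for FIB1 was lost in 19 of the 25 other settings, with the sign kept in all.

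For the change at 48 h, limma found 0 of 40 genes with a higher or lower response in 35S::RDM4 plants, where 4.56 % of all genes passed as higher and 0.889 % as lower, and 4 of the 40 had an unadjusted p below 0.05, as did 18.9 % of all genes. No other setting tried called any of the 40. The 95% intervals of the difference in response lay between −0.34 and 0.42 on the log2 scale, within 1.5-fold either way for all 40 genes. Across the 40 genes the 48 h changes in the genotypes correlated at r = 0.988, and across all 20806 genes at r = 0.937. For the 3 h changes the order was the reverse, with r = 0.874 across the 40 genes and 0.910 across all genes. These values are a description only, since each genotype's changes share its own 0 h arrays and genes are not independent.

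**Figure D4:**
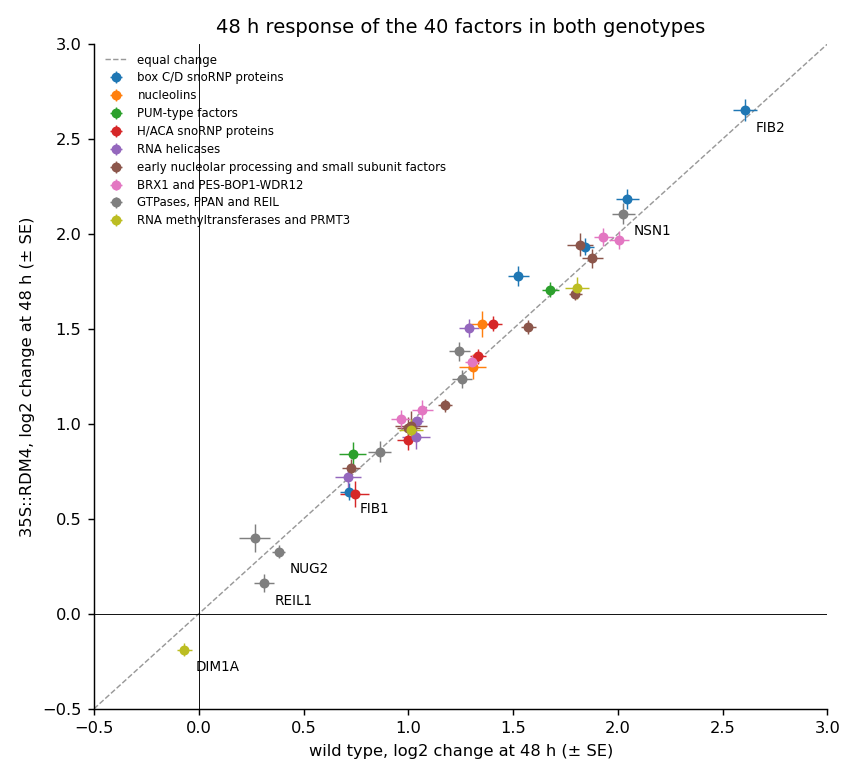
Log2 change at 48 h against 0 h in 35S::RDM4 plants (vertical axis) and wild type (horizontal axis) for the 40 genes, coloured by role group, with bars of ± 1 SE (n = 2 arrays a group) and a dashed line of equal change. The points follow the dashed line from DIM1A at −0.19 and −0.07 to FIB2 at 2.65 and 2.61.

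Other genes of the ribosome pathway, taken from lists that leave out the 40, moved in the same direction at 48 h. The shares of all genes passing were 40.8 % higher and 38.7 % lower in 35S::RDM4 plants, and 39.8 % and 39 % in wild type. Of 6 subunits of RNA polymerase I, which transcribes the rRNA precursor, 6 passed as higher in both genotypes, with medians of 1.06 in 35S::RDM4 plants and 1.09 in wild type. The largest rise was that of NRPA1, the catalytic subunit, with 1.39 and 1.46. Of 14 exosome and rRNA nuclease genes tested (15 listed), which trim and degrade rRNA precursors, 12 passed as higher and 0 as lower in 35S::RDM4 plants and 13 and 0 in wild type, with medians of 0.71 and 0.74. They ranged from MTR4, the nuclear helicase of the exosome, with 0.02 and 0.11, neither past the test, to CSL4, an exosome cap subunit, with 1.85 and 1.74. The 3 other nucleolar factors found by annotation all passed as higher, with medians of 0.75 and 0.76.

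The cytosolic ribosomal protein genes listed here had a smaller median change at 48 h than the 40 assembly factors, a difference between lists that was not tested. That list holds named genes only and was widened beyond the planned wording. Of 34 cytosolic ribosomal protein genes, 34 passed as higher at 48 h and 0 as lower in both genotypes. Their median log2 change at 48 h was 0.57 in 35S::RDM4 plants and 0.61 in wild type, from 0.23 for RPS15A to 1.03 for RPL23AB in wild type. At 3 h 4 passed as higher and 4 as lower in 35S::RDM4 plants, and 7 and 1 in wild type, with medians of 0.02 and 0.09. Over all genes at 3 h, 32.9 % passed as higher and 37 % as lower in 35S::RDM4 plants, and 31 % and 37.1 % in wild type. Genes of the TOR kinase pathway, a regulator of ribosome synthesis, were mixed at 48 h. The shares of all genes at 48 h were 40.8 % higher and 38.7 % lower in 35S::RDM4 plants, and 39.8 % and 39 % in wild type. Of 10 tested, 5 passed as higher and 3 as lower in 35S::RDM4 plants and 6 and 3 in wild type, from −0.46 and −0.58 for RAPTOR1B, a partner of the kinase, to 0.82 and 0.82 for RPS6A, a ribosomal protein phosphorylated downstream of it. RPS6A and RPS6B are on both this list and that of the ribosomal proteins.

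**Figure D5:**
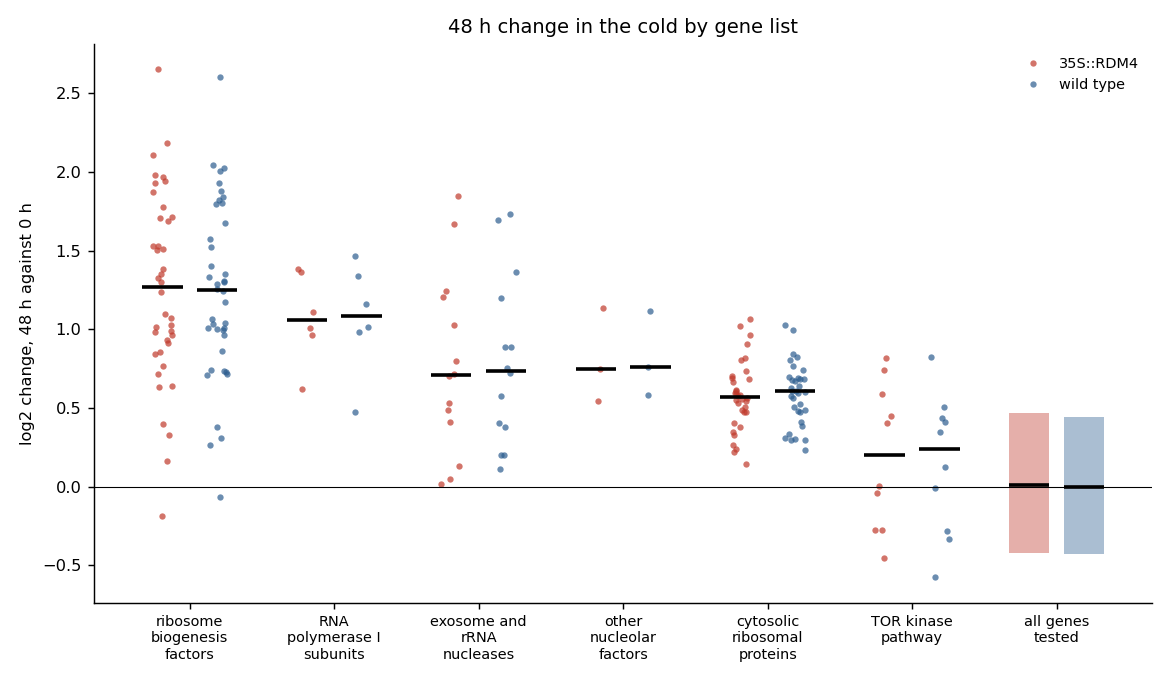
Log2 change at 48 h against 0 h for the genes of 6 lists, with 35S::RDM4 in red to the left of wild type in blue; each point is a gene, black lines are medians, and the boxes at the right span the middle 50 % of all 20806 genes tested. The medians of the ribosome biogenesis factors are 1.27 and 1.25, those of the cytosolic ribosomal proteins 0.57 and 0.61, and those of all genes lie near 0.

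Markers of other cell types moved over the same 48 h, where 40.8 % of all genes passed as higher and 38.7 % as lower in 35S::RDM4 plants. In wild type these shares were 39.8 % and 39 %. Of 5 dividing cell markers, 4 passed as higher and 1 as lower in both genotypes, among them PCNA1 with 1.17 in 35S::RDM4 plants and 1.05 in wild type, and CDKB2;1 with −0.54 and −0.69. Their summed level, as a multiple of each array's 75th percentile, was 5.36 to 5.39 in 35S::RDM4 plants at 48 h, against 3.58 to 3.60 at 0 h, and 5.19 to 5.22 in wild type at 48 h, against 3.83 to 3.84 at 0 h. Of 4 root markers, 3 passed as higher and 1 as lower in both genotypes. Their summed levels were 4.56 to 4.77 in 35S::RDM4 plants at 48 h, against 2.71 to 2.85 at 0 h. In wild type the sums were 3.74 to 3.83 at 48 h, against 3.10 to 3.22 at 0 h. These sums join large opposite changes, a rise of IRT1 and a fall of TIP2;3. Over the 12 arrays the unscaled signal of IRT1 ran from 216 to 14768 and that of TIP2;3 from 517 to 8539. COBL9 ran from 3117 to 6981 and EXP7 from 1344 to 3020. The 75th percentile of the arrays itself ran from 2725 to 5685, so these unscaled ranges include differences in brightness between arrays. Of 4 leaf markers, 0 passed as higher and 2 as lower in 35S::RDM4 plants and 0 and 1 in wild type. Their summed levels differed widely between replicates, and the ranges of 0 h and 48 h overlapped in both genotypes. Over the 12 arrays the unscaled signal of RBCS1A ran only from 456053 to 596794 and that of LHCB1.3 from 458755 to 577519. These ranges are narrow beside that of the 75th percentiles, so the scaled levels of both genes depend strongly on the scaling. Whether their probes were near the top of the signal range was not tested. They were 273 to 371 in 35S::RDM4 plants at 48 h, against 354 to 428 at 0 h. The wild type sums were 335 to 377 at 48 h, against 340 to 513 at 0 h. CA1, a chloroplast carbonic anhydrase, changed by −1.20 in 35S::RDM4 plants and −1.14 in wild type. All of these markers were well above background on all 12 arrays, and their part in the changes of the 40 genes was not tested.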

How the data were processed

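Leaf RNA (150 ng an array, RNA integrity number at least 7.5) was labelled with Cy3 and hybridised to 12 Agilent arrays, per the labels' protocols. The authors deposited scanner files of Feature Extraction 10.7.1.1 whose processed signal is an intensity with background removed, per the file headers. Here log2 of that signal minus each array's 75th percentile was taken. Control features and 108 probes flagged as outliers were left out, and no spot was saturated. A probe was kept if well above background on both arrays of a group, and a gene is its kept probe with the highest mean (33198 probes, 20806 genes). limma 3.58.1 in R 4.3.3 fitted 6 group means and 11 contrasts (6 residual degrees of freedom) with Benjamini-Hochberg adjustment. The fit was tested on simulated data. Precision is limited by 2 arrays a group.

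The members and lists were chosen with earlier results of these data known. Named with all arrays were the member of each role group that changed most in wild type at 48 h, both genes of 6 pairs, and members that passed between genotypes; from other lists, the largest rise, the largest fall or the gene nearest 0, plus RDM4 and cell type markers. The annotation text named only 7 cytosolic ribosomal protein genes by the planned wording, so that list was widened to 34 named genes. The planned promoter motif search was not run. Alternatives were other background corrections, scalings, filters, probe rules, blocks, variance models and the deposited value table, and leaving out each array. Normexp used the median signal with an offset of 50.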

Additional observations from a re-analysis of the deposited data

Results flagged for a closer look

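FIB1 (AT5G52470), a fibrillarin gene, is listed because the test of its early response between the genotypes passed. The 3 h change in 35S::RDM4 plants minus that in wild type was −0.26 on the log2 scale (limma, adjusted p = 0.0475), a difference tested directly as an interaction. On the 2 arrays of each group its log2 level was 3.37 and 3.44 at 0 h and 3.47 and 3.42 at 3 h in 35S::RDM4 plants, against 3.32 and 3.33 at 0 h and 3.63 and 3.64 at 3 h in wild type. The 3 h and 0 h arrays overlapped in 35S::RDM4 plants and did not in wild type. It is 1 lower call of 40 genes, where 2.63 % of all genes passed as lower. The adjusted p ran from 0.0306 to 0.153 over 25 other settings and missed the threshold in 19 of them. Those with the replicate number, slide or scan day as a fixed term were among the 19, while with slide as a random block the call was kept.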

How the results depend on the processing

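The counts for the cold responses stayed within 1.5 times their value under the 25 other settings. With an array left out, the number of the 40 genes passing in each cold comparison stayed at 28 to 31 (3 h, 35S::RDM4), 27 to 34 (3 h, wild type), 39 to 40 (48 h, 35S::RDM4) and 38 to 39 (48 h, wild type), and all 40 passed between 3 h and 48 h in both genotypes. Under the other 13 settings these counts were 26 to 31, 25 to 34, 39 to 40, 39, 40 in 35S::RDM4 plants and 39 to 40 in wild type. Rises at 3 h were among the calls lost. With normexp these were NUC2 and NOB1 in 35S::RDM4 plants and NOP58-2, NUC2, RH57, SWA2, LSG1-2 and RID2 in wild type. The falls of RH36, NUG2, RH7 and LSG1-1 at 3 h in wild type were lost under several settings, while that of DIM1A passed in all 25. The 48 h call of LSG1-1 was lost in wild type without the second 0 h array (adjusted p = 0.0685) and in 35S::RDM4 plants with slide as a term (adjusted p = 0.182). That of REIL1 in 35S::RDM4 plants was lost without the second array of 0 h or of 48 h (adjusted p at most 0.0741).

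The genotype calls depend on the settings. Leaving out an array gave 0 to 5 genes between genotypes at 0 h, 0 to 6 at 3 h, 0 to 1 at 48 h, and 0 to 3 for the response at 3 h. The highest of these at 0 h, 3 h and for the response came without either 35S::RDM4 array of 48 h. The count was 0 at 0 h without the first wild type or second 35S::RDM4 array of 0 h, and at 3 h without either wild type array or the second 35S::RDM4 array of 3 h. At 48 h it was 1 without either wild type array of 0 h or the first 35S::RDM4 array of 48 h and 0 without any other, and for the response it was 1 without the first 35S::RDM4 array of 3 h and 0 without any array other than those already named. At 0 h the count of 2 was 0 with normexp, with slide as a term or with only the compared arrays, 1 without a filter or from the deposited value table, 4 with quantile scaling and 5 with a trended and robust variance. At 3 h the count of 4 was 0 with normexp, the value table, slide as a term or only the compared arrays, 1 without a filter, 5 with quantile scaling or a trended and robust variance, and 6 with probes above background on all arrays. At 48 h the count of 1 was 0 with normexp, quantile or median scaling, no filter, the value table, slide as a term or only the compared arrays, and 2 with a trended and robust variance. For the 3 h response the count of 1 was 2 with quantile or median scaling or a trended and robust variance, and 0 with normexp, no filter, the value table, slide or scan day as a term, or only the compared arrays. FIB1 itself was lost with quantile scaling and with the trended and robust variance. With slide as a random block instead of a term, no genotype call was lost or gained at 0 h, 3 h or 48 h or for the 3 h response. The causes were not tested. Slide as a term leaves 2 residual degrees of freedom.

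In wild type the replicate number is also the slide and scan day, and deviations of same-numbered arrays correlated at 0.167 to 0.286 between the 3 times. Between 35S::RDM4 times and between genotypes they correlated at −0.0537 to 0.136, so the numbers were not taken to pair the samples. With the replicate block the counts were 30 and 40 in 35S::RDM4 plants at 3 h and 48 h, 3, 5 and 1 between genotypes at 0, 3 and 48 h, and 1 for the 3 h response. The genes changed: RID2 was lost and CBF5 and NOP10 gained at 0 h, NUC2 was gained at 3 h, NOB1 was lost at 3 h in 35S::RDM4 plants, and for the response FIB1 was lost and NOP10 gained. In wild type the block changed no cold call.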

Other observations

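Iron and water transport genes used as root markers moved far in these samples, which the labels' protocols describe as leaf. The other root markers, COBL9 and EXP7, were also well above background on all 12 arrays. Whether the samples held root tissue was not tested. IRT1 (AT4G19690), an iron transporter of the root surface, changed by 4.999 in 35S::RDM4 plants and 4.42 in wild type on the log2 scale at 48 h, and TIP2;3 (AT5G47450), a vacuolar aquaporin, by −3.35 and −3.64 (limma, adjusted p at most 2.27e-09).

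The deposited value table equals the scanner's median signal in 11 of its 12 columns. The column of the second 35S::RDM4 array at 48 h equals it in 657 of 45220 features. That column correlated at r = 0.997 with its own array and at r = 0.997 with the second wild type array at 48 h, and its RDM4 value was 250960 against 275395 in the scanner file. The main results here use the scanner files.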
